A study of Prunus persica and Prunus armeniaca with 129 samples.

Results

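Among peach trees raised from a single cross, some genes held different levels in different trees from autumn to bloom. The 60 genes described here, of 26866 peach (Prupe) genes scored and 26872 counted in the series, are those in which such a difference between cultivars was largest compared with the change over time. They were chosen by measured values. Counts were divided by the library total and multiplied by 1000000 (CPM), and log2(CPM + 1) was averaged for each of 4 cultivars at 0, 100 and 600 chill hours (CH) and at pre-bloom. The score of a gene was the range of the 4 cultivars' means over these time points minus the largest SD over time points of any cultivar (SD with n - 1 in the denominator), and the 60 highest scores were taken. Differences between cultivars at these 4 time points are therefore given as a description without a test.

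The peach cultivars A209, A340, A318 and A323 are siblings of an F2 population from a cross of a low chill and a high chill parent, grown in South Carolina. A209 and A340 need little chilling before they bloom (low chill), and A318 and A323 need much (high chill). No agent was applied in any group, and chilling accumulated outdoors. RNA from floral buds was sequenced in 69 peach libraries, of which 61 entered the score: 16 of A209, 16 of A340, 14 of A318 and 15 of A323. The other 8 libraries, 4 of A318 and 4 of A323 at 1000 CH, were not used by the score, and the low chill trees had flowered by then. Replicates were clones of 1 seedling per cultivar, so a difference between cultivars is a difference between single genotypes, and p-values measure the spread between clonal trees. The 60 apricot libraries, of the cultivars A2137, A1956, A660 and A1267, grown in France, were not used by the score either.

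In winter, flower buds of temperate fruit trees pass from endodormancy, which only chilling can end, to ecodormancy, in which they wait for warmth. The DAM genes, a tandem group of MADS box genes on chromosome 1 of peach, are known regulators of that passage. Siblings of an F2 population carry different combinations of their grandparents' chromosome segments, and genes that lie close together on a chromosome are usually inherited together. The levels of the DAM genes in the bud are known to change with the season. The 60 genes were taken from Prupe identifiers, which the 6 DAM genes do not carry. DAM scores ran from -1.19 for DAM4 to 0.52 for DAM5, against 1.57 to 4.01 for the 60 genes (median 2.13) and a median of -0.20 over all Prupe genes. The cultivar means of DAM5 had a range of 3.23 on the log2 scale and those of DAM6 of 2.17, both higher in the high chill pair. The largest SDs over time points were 2.72 and 2.75. In the other DAM genes the range was 0.303 (DAM2) to 1.27 (DAM3), against a median of 2.79 in the 60 genes.

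The library totals were 494799 to 26858662 counts (median 9692141), so that 3 counts, taken as the floor of a library, were 0.112 to 6.06 CPM. Values under a library's own floor are printed below as counted and rest on fewer than 3 counts. The floor covers counting error only. The bud label was checked against marker genes: the floral identity genes AG, AP3, LFY, AP1 and AGL6 had counts in 69 of 69 peach libraries and STK, an ovule identity gene, in 63. The summed level of these 6 genes was 147 to 519 CPM in A209, 222 to 494 in A340, 203 to 451 in A318 and 55.2 to 457 in A323. Anther genes (MS2, LAP6, LAP5 and LAP3) summed to at most 2510 CPM in A209, 2211 in A340, 174 in A318 and 114 in A323. The medians of this sum were closer, at 31.5, 46.5, 23.1 and 12.9 CPM in the same order. The sum of DAM4, DAM5 and DAM6 reached 634, 635, 3080 and 3494 CPM (medians 312, 374, 601 and 1453). Green tissue genes (LHCB1.3, LHCA6, PPL2 and PsbP) summed to 21.3 to 196 CPM over all cultivars, with overlapping ranges. These values are over all time points, so cultivar and bud stage are not separated in them. The part of tissue and bud stage in the levels below was not tested. In whole buds, fewer cells of a type and less RNA per cell cannot be told apart.

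1 library went against its label. In the library labelled A323 0 CH replicate 4, the 60 genes followed A318 (Pearson r of 0.88 with the deviations of A318 from the mean of the cultivars and 0.20 with those of A323, across genes), and it was the only 1 of 69 whose members followed another cultivar than its own. Over 1000 variable genes outside the 60 it was also closer to the other libraries of A318 at 0 CH (r = 0.95) than to those of A323 (r = 0.82). It was kept where its label puts it, and values of A323 printed below for single genes are those of its other 14 libraries at the 4 time points. In 25 of the 60 genes it lay outside the range of these 14, and its value is then given wherever a value of A323 is. Without it, 59 of the 60 genes had the highest scores: Prupe.3G066800 left and Prupe.3G121800 entered, and no gene changed its high or low cultivars. Depth moved with the low levels. In each library, the genes low in its cultivar were at a median of 4.90 to 32.3% of the mean of the high cultivars in the 9 libraries with totals under 2423035.25 counts (the peach median divided by 4), and at 0.823 to 13% in 59 others, leaving out the library labelled A323 0 CH replicate 4 (72.9%). Without the libraries under that total, 57 of the 60 genes had the highest scores. The paper reports ribosomal RNA contamination in most peach libraries. Its share was a significant factor there, without a significant interaction with genotype or time point. The part of ribosomal RNA in the totals and low levels was not tested.

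Each gene was given a high and a low side by splitting its 4 cultivar means at the largest gap. In 29 of the 60 genes the split fell between the low chill pair and the high chill pair, in 22 it set 1 cultivar apart from the other 3, and in 9 it paired a low chill with a high chill cultivar on each side. With all 61 libraries, the mean CPM of the high side was 4.49 to 52.2 times that of the low side (median 14.6), and the mean of the high side was 2.69 to 109 CPM (median 9.82). Without the library labelled A323 0 CH replicate 4, the ratio was 4.56 to 50.8 (median 17.6) and the high-side mean 2.69 to 112 CPM (median 10.03). In Prupe.2G153400 that library moved the ratio from 38.95 to 7.04. Of the 60 genes, 57 have no name in the sources used here. CPM is not corrected for gene length, so levels are compared between cultivars and not between genes.

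**Figure D1:**
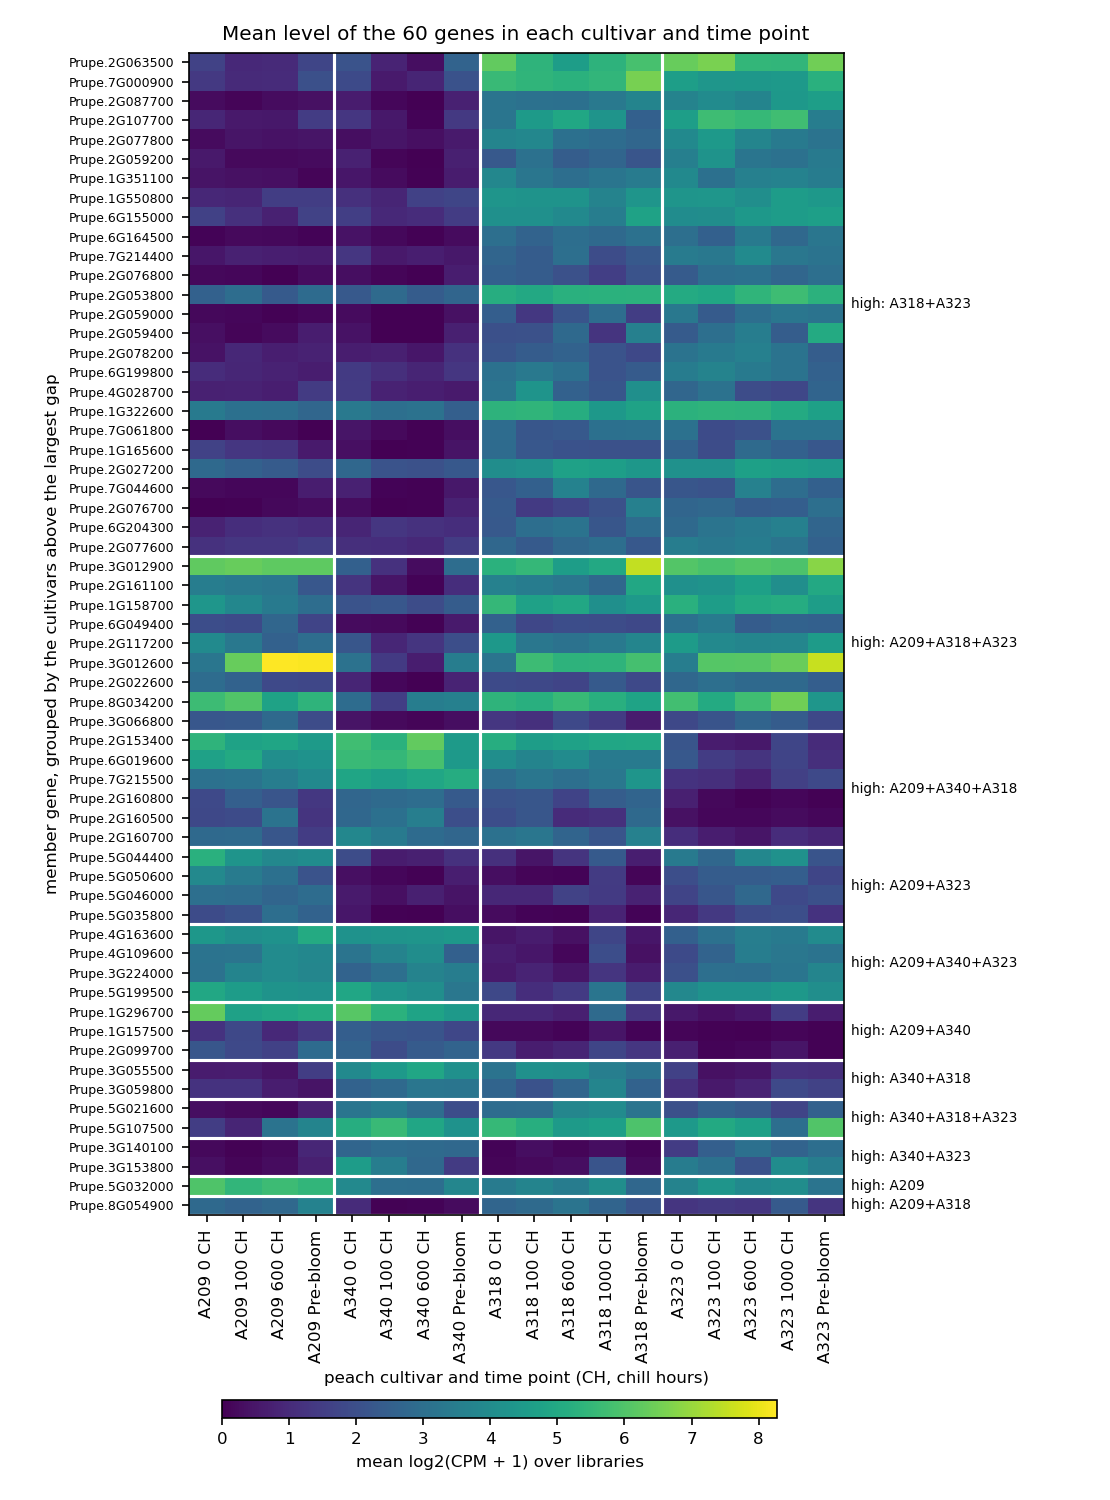
Mean log2(CPM + 1) of the 60 genes (rows, grouped by the cultivars on their high side) in each peach cultivar and time point (columns), with A323 0 CH including the library labelled replicate 4. The largest group, 26 genes, is bright in A318 and A323 and dark in A209 and A340 at each time point.

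The largest group held 26 genes that were high in both high chill cultivars and low in both low chill cultivars. Prupe.2G063500 had the highest score among them (3.83). Its level was 0.112 to 6.08 CPM in the 16 libraries of A209 (median 1.12) and 0.145 to 11.3 in the 16 of A340 (median 1.47), against 20.2 to 118 in the 14 of A318 (median 47.5) and 40.6 to 140 in the 14 of A323 (median 80.6), with 66.2 in the library labelled A323 0 CH replicate 4. No library of the low side reached any of the high side. Prupe.7G000900 was at 0.223 to 6.06 CPM in A209 and 0.176 to 7.53 in A340, and at 22.5 to 111 in A318 and 12.4 to 50.5 in A323. The 6.06 CPM were 3 counts in A209 pre-bloom replicate 1, the library with the lowest total. In this gene A318 had the higher median of the high chill pair, 45.9 against 22.7 CPM, while Prupe.2G063500 had the opposite order.

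Several of these genes were close to silent on the low side. Prupe.6G164500 had no count in 14 of the 32 low chill libraries and at most 1.24 CPM in the others, against 4.76 to 10.6 CPM in A318 and 3.50 to 12.6 in A323. Prupe.2G076800 had no count in 16 and Prupe.2G059000 in 18 of these 32 libraries, and their medians in the high chill cultivars were 4.54 and 2.11 CPM in A318 and 7.44 and 7.52 in A323. Prupe.2G087700 had no count in 12, a maximum of 1.37 CPM in the rest, and 4.04 to 28 CPM in A318 and A323, with 8.06 in the library labelled A323 0 CH replicate 4. Prupe.1G351100 had no count in 11 (at most 3.04 against at least 3.61 CPM) and Prupe.2G077800 in 4 (at most 1.14 against at least 4.07 CPM), with 7.20 and 4.64 CPM in that library. The sides did not overlap in either. At such depths a level of 0 shows only that the transcript was not detected.

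Others had counts on both sides in most libraries. Prupe.2G053800 had medians of 5.42 CPM in A209 and 5.30 in A340 and of 31.8 in A318 and 36.7 in A323, and its largest SD over time points was 0.28 on the log2 scale, the smallest of the 60 genes. Prupe.1G322600 had medians of 7.09 and 8.23 CPM in the low chill and 30.3 and 37.6 in the high chill cultivars, and its libraries did not overlap between the sides. Prupe.1G550800 ran from 0 to 4.04 CPM in A209 and A340 and from 8.10 to 36.5 in A318 and A323, without overlap. Prupe.6G155000 was at 0.193 to 4.05 CPM in the low chill and 8.14 to 37.04 in the high chill cultivars, again without overlap.

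Prupe.2G107700 belonged to this group but moved with the season on its high side. In A318 it ran from 2.99 to 71.6 CPM (median 17.5) and in A323 from 6.44 to 67.8 (median 40.5), while A209 stayed at 0 to 6.06 and A340 at 0 to 4.11 CPM. A level of 6.06 CPM is that of 3 counts in A209 pre-bloom replicate 1, the library with the lowest total. The libraries of Prupe.2G107700 overlapped between the sides. Prupe.2G059200 and Prupe.7G214400 overlapped too: their low chill libraries reached 2.17 and 3.08 CPM, above the lowest of A318 at 2.12 and 2.79.

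The other 7 of the genes high in A318 and A323 that are not near another member had scores of 1.63 to 1.94. Prupe.2G027200 was at 1.12 to 9.45 CPM in the low chill and 6.57 to 41.3 in the high chill cultivars. Prupe.4G028700 had a median of 12.6 CPM in A318 and 5.45 in A323 against 0.777 and 0.789 in A209 and A340. Prupe.1G165600 had similar medians in A318 and A323 (3.69 and 3.50 CPM), but its low chill medians differed, 1.44 CPM in A209 and 0.022 in A340. Prupe.6G199800 and Prupe.6G204300, 45 places apart, had nearly equal low chill medians of 1.09 to 1.18 CPM, and both had 8.45 CPM in A323. Prupe.7G044600 and Prupe.7G061800 reached 2.02 and 1.24 CPM in the low chill libraries, and of this set of 7 Prupe.7G061800 was the only one without overlap between the sides.

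The opposite pattern, high in the low chill pair and low in the high chill pair, was rarer: 3 genes. Prupe.1G296700 had the highest score of all (4.01). It was at 17.5 to 103 CPM in A209 (median 32.5) and 14.7 to 126 in A340 (median 34.4), against 0.112 to 2.98 in A318 (median 0.984) and 0 to 2.33 in A323 (median 0.419), with no overlap. At 1000 CH, which the score did not use, it was higher in A318, at 3.13 to 11.3 CPM, and at 0.646 to 2.58 in A323. In both low chill cultivars it was highest at 0 CH, where the 4 libraries of A209 lay between 70.4 and 103 CPM. Prupe.1G157500 was at 1.74 to 5.63 CPM in A340 and at no more than 0.309 in A318, and A209 overlapped the low side with 0 to 3.99. Prupe.2G099700, at place 58 of the 60 scores, had medians of 3.04 and 4.28 CPM in A209 and A340 and of 0.969 and 0 in A318 and A323, with 6.53 in the library labelled A323 0 CH replicate 4.

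**Figure D2:**
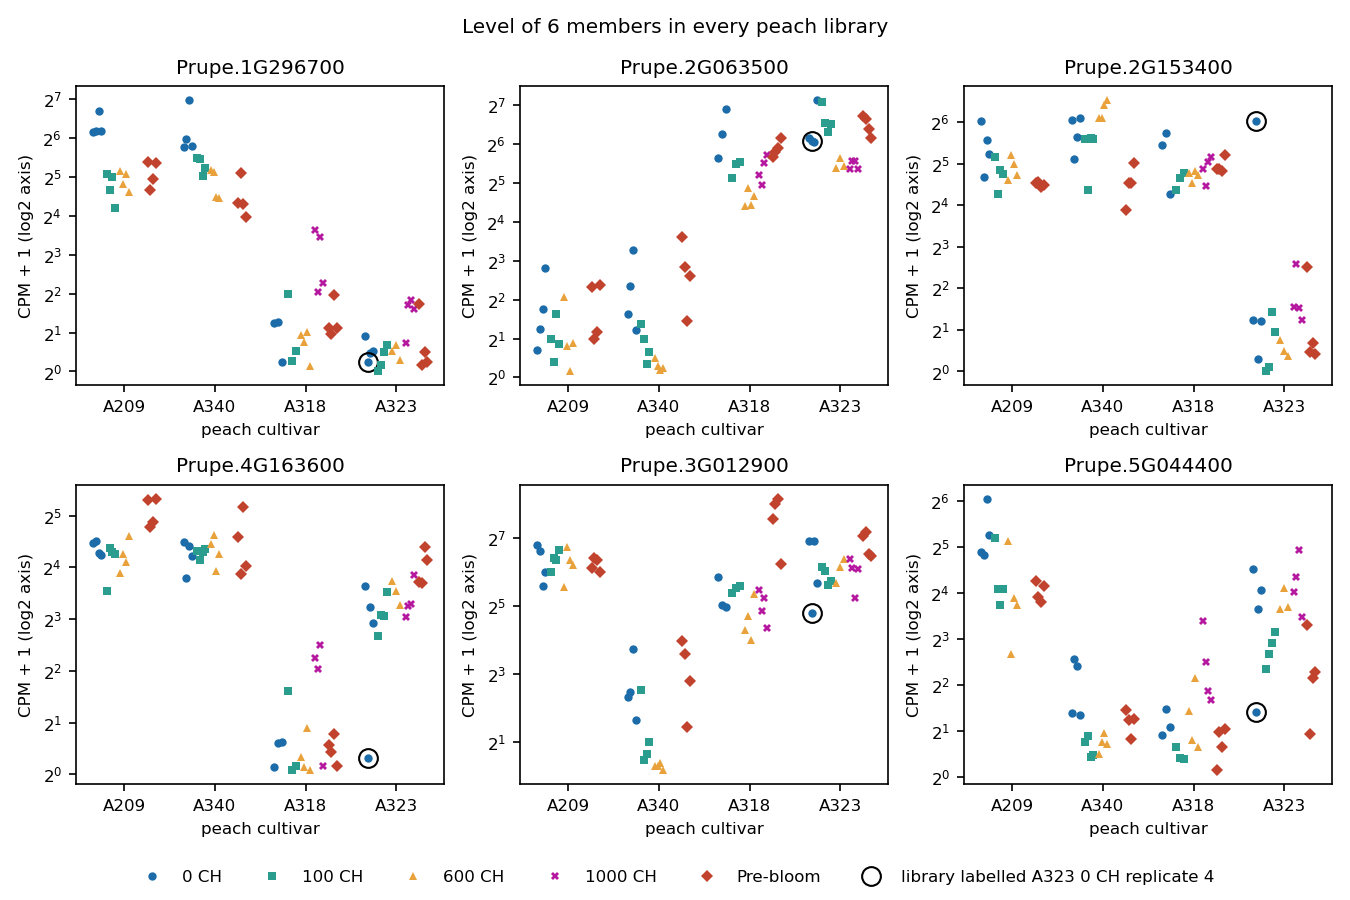
CPM + 1 on a log2 axis for 6 of the genes in every peach library, by cultivar (x axis) and time point (colour and shape), with a ring around the library labelled A323 0 CH replicate 4. In Prupe.2G153400 and Prupe.4G163600 the ringed library sits among the levels of A318, at 64.2 and 0.244 CPM.

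In 9 genes A340 alone was low. Prupe.3G012900 was at 0.117 to 14.8 CPM in A340 (median 1.92), and at 46.1 to 111 in A209, 15.2 to 287 in A318 and 48.4 to 143 in A323 (26.6 in the library labelled replicate 4 at 0 CH), without overlap. Prupe.3G012600, 3 places before it in the order of identifiers, changed most over time of the 60 genes (largest SD 2.36 on the log2 scale): in A209 it ran from 6.29 CPM to 606, against 0.417 to 30.4 in A340, and the libraries overlapped. Prupe.2G161100 had medians of 8.44, 12.2 and 23 CPM in A209, A318 and A323 and of 0.449 in A340, and 1 library of A209 had no count. Prupe.1G158700 had a median of 3.50 CPM in A340 and of 9.78, 25.8 and 24.8 in A209, A318 and A323. Prupe.8G034200 was at 0.750 to 17.9 CPM in A340 and 13.8 to 79.7 in the other 3 cultivars. Prupe.6G049400, Prupe.2G022600 and Prupe.2G117200 had medians of 0.0803, 0.122 and 1.63 CPM in A340, and the lowest of their medians in another cultivar was 3.36, 2.58 and 8.0 CPM. Prupe.3G066800 is annotated by its Arabidopsis match as J2, a DNAJ homologue, a family of co-chaperones that work with HSP70 proteins. It had a median of 0.141 CPM in A340 and of 3.92, 1.13 and 3.87 CPM in A209, A318 and A323, with 0.732 in the library that went against its label.

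In 6 genes A323 alone was low. Prupe.2G153400 was at 18.3 to 64.3 CPM in A209, 13.9 to 92.2 in A340 and 18.3 to 52.2 in A318, and at 0 to 4.67 in A323 (median 0.514), with 64.2 in the library labelled A323 0 CH replicate 4. Without that library, the sides did not overlap. Prupe.6G019600 matches BGLU17, a beta glucosidase of Arabidopsis, a family that removes glucose from stored glycosides. It had medians of 22.5, 45.3 and 12.9 CPM in A209, A340 and A318 and of 1.69 in A323 (0.389 to 3.82), with 20.02 in the library that went against its label. Prupe.7G215500 had medians of 8.98, 30.9 and 8.46 CPM in A209, A340 and A318 and of 1.01 in A323, with 5.55 in that library. The remaining 3 genes, Prupe.2G160500, Prupe.2G160700 and Prupe.2G160800, are listed next to or near each other, and Prupe.2G160800 was at no more than 0.438 CPM in A323 with medians of 3.55, 6.70 and 3.54 in A209, A340 and A318. The library that went against its label was at 3.48 CPM there.

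A318 alone was low in 4 genes. Prupe.4G163600 was at 10.6 to 39.2 CPM in A209, 12.8 to 34.9 in A340 and 5.36 to 19.9 in A323, and at 0.0538 to 2.05 in A318 (median 0.300), with 0.244 in the library labelled A323 0 CH replicate 4. Prupe.4G109600, Prupe.3G224000 and Prupe.5G199500 had medians of 0.244, 0.423 and 2.0 CPM in A318, and the lowest of their medians in another cultivar was 6.32, 7.31 and 16.2 CPM. The library labelled A323 0 CH replicate 4 had 0.427, 0.366 and 1.53 CPM of them. Without the library that went against its label, the sides did not overlap in Prupe.4G163600, Prupe.4G109600 and Prupe.3G224000.

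A209 stood alone in 3 genes, on the low side in 2 and on the high side in 1. Prupe.5G021600 had a median of 0.294 CPM in A209 and of 7.82, 8.82 and 4.70 CPM in A340, A318 and A323. Prupe.5G107500 had a median of 2.98 CPM in A209 but reached 26 there, and ran from 6.51 to 107 CPM in the other 3 cultivars. Prupe.5G032000 was the single gene that was high in 1 cultivar only: 22.7 to 191 CPM in A209 (median 38.7) against medians of 8.89, 7.70 and 14.8 CPM in A340, A318 and A323.

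The last 9 genes put a low chill and a high chill cultivar on the same side. Prupe.5G044400, Prupe.5G046000, Prupe.5G050600 and Prupe.5G035800 were high in A209 and A323. The first had medians of 16.4 and 8.37 CPM there and of 0.891 and 0.808 in A340 and A318. Prupe.3G055500 and Prupe.3G059800 were high in A340 and A318. Prupe.3G055500 was at 6.81 to 39.4 and 5.34 to 24.1 CPM in these and at 0 to 4.04 and 0 to 2.33 in A209 and A323, with 11.1 in the library labelled A323 0 CH replicate 4. Prupe.3G059800 matches PDR8 (PEN3), an ABC transporter of the Arabidopsis plasma membrane known for its part in defence against fungi. It had medians of 7.30 and 4.45 CPM in A340 and A318 and of 0.695 and 0.790 in A209 and A323, with 6.04 in that library. Prupe.3G140100 and Prupe.3G153800 were high in A340 and A323, and Prupe.8G054900 in A209 and A318, where its medians were 6.57 and 5.23 CPM against 0.0459 and 1.20 in A340 and A323, with 6.16 in the library that went against its label.

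Over the 4 time points together, the libraries of the high and the low side did not overlap in 14 of the 60 genes, against 0.057% of the Prupe genes with a count, split in the same way. Without the library labelled A323 0 CH replicate 4 it was 21 genes, against 0.0836%. The sides were apart at each of the 4 time points in 20 genes (0.0874% of all) and, without that library, in 30 (0.129%). These shares were fixed in large part by the score, which used the same libraries.

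The 60 genes lay on all 8 chromosomes, with 21 on chromosome 2, 8 each on chromosomes 3 and 5, 7 on chromosome 1, 6 on chromosome 6, 5 on chromosome 7, 3 on chromosome 4 and 2 on chromosome 8. Chromosome and order were read from the gene identifiers, which number the genes along each chromosome of the peach v2.0 annotation. On chromosome 2, a stretch of 540 listed genes from Prupe.2G053800 to Prupe.2G107700 (of 3303 on the chromosome) held 13 of the 60, and 12 of these were high in A318 and A323. The exception was Prupe.2G099700, with the reverse pattern. A second stretch of 78 listed genes, from Prupe.2G153400 to Prupe.2G161100, held 5, of which 4 were low in A323 alone. On chromosome 5, the 4 genes from Prupe.5G035800 to Prupe.5G050600, within 149 listed genes, were all those high in A209 and A323. The borders of these stretches were set at members after their high and low sides were known, and clustering was not tested. Outside them, Prupe.2G117200, listed after the first stretch, was low in A340 alone. Prupe.5G032000, listed before the stretch on chromosome 5, was high in A209 alone. Genes high in A318 and A323 were found on 5 chromosomes.

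**Figure D3:**
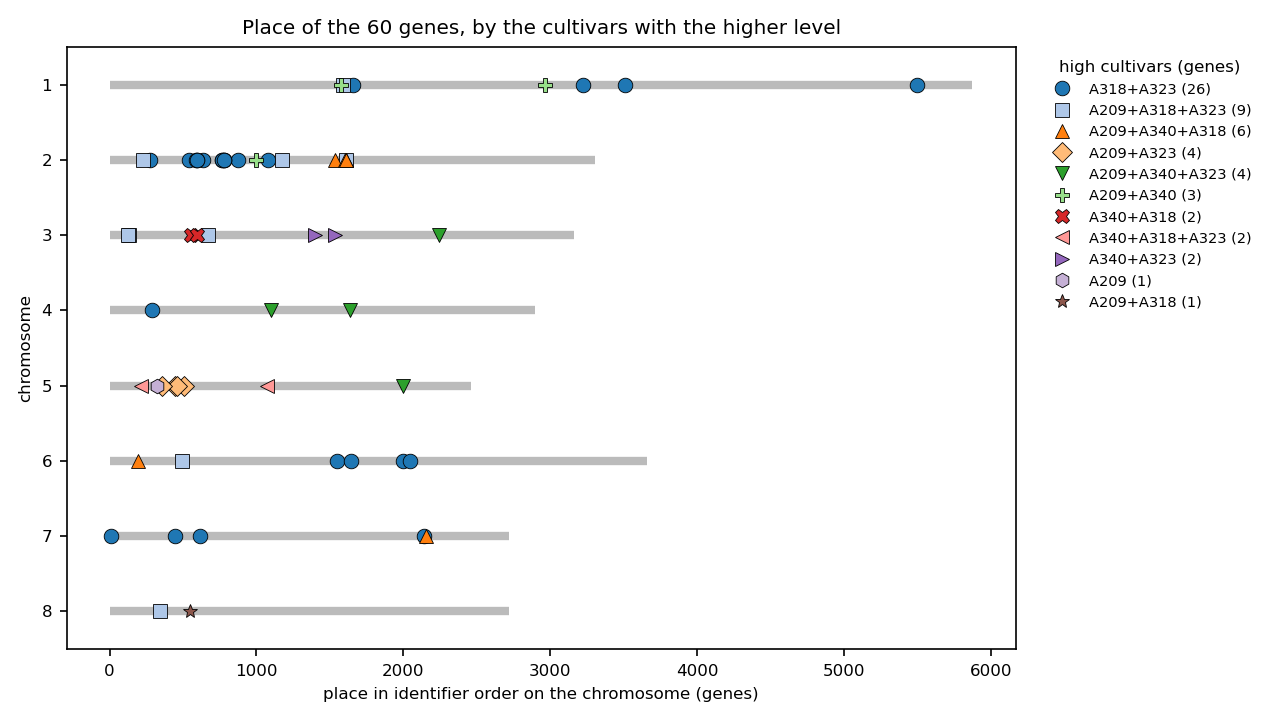
Place of the 60 genes in identifier order (x axis, in genes; grey bars show all listed genes) on the 8 chromosomes (y axis), with colour and shape for the cultivars on the high side. Chromosome 2 holds 21 of the genes, 13 of them high in A318 and A323.

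In 14 genes another of the 60 was within 10 listed places, and in 13 of these 14 the nearest one had the same high and low cultivars. They were Prupe.2G059000, Prupe.2G059200 and Prupe.2G059400, then Prupe.2G076700, Prupe.2G076800, Prupe.2G077600, Prupe.2G077800 and Prupe.2G078200, then Prupe.2G160500, Prupe.2G160700, Prupe.2G160800 and Prupe.2G161100, and the pair Prupe.3G012600 and Prupe.3G012900. The exception was Prupe.2G161100, which was low in A340 and lay 3 places from Prupe.2G160800, low in A323. Within 50 places, 30 genes had another of the 60, and 21 of these 30 matched the nearest. How reads shared by similar neighbouring genes were counted is not given in the sources used here, so the levels of adjacent pairs such as Prupe.2G076700 and Prupe.2G076800 are uncertain.

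The 112 Prupe genes listed directly before or after a member had a median score of -0.05, and the 992 within 10 places a median of -0.14, against -0.20 over all Prupe genes.

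The 8 libraries at 1000 CH gave a comparison that the score had not used: A318 against A323, late in winter. By the chilling requirements in the paper, 1000 CH is past that of A318 and short of that of A323. In the paper, A318 buds at 1000 CH nevertheless clustered nearer to endodormant buds. Cultivar and predicted dormancy state cannot be told apart in these 8 libraries. In 19 of the 60 genes, A318 and A323 stood on different sides at the other time points (9 with A318 on the high side, 10 with A323), and in 19 of these 19 the mean log2(CPM + 1) at 1000 CH differed in the same direction. In 11 of the 19 the 4 libraries of A318 and the 4 of A323 did not overlap, and in 0 of them did they separate the other way. Over all 60 genes, 22 did not overlap at 1000 CH, against 4.76% of Prupe genes with a count there. The mean at 1000 CH was also set against the range of the means at the other 4 time points. A further mean often falls outside a range of 4 means, so these counts show no trait of 1000 CH. The A318 mean was within that range in 30 genes, above it in 17 and below it in 13. For A323 these numbers were 40, 14 and 6. The same direction was frequent outside the 60 as well: of 166 other Prupe genes with a difference between A318 and A323 at least as large as the smallest of the 19 (1.17 on the log2 scale), 160 also had the same sign at 1000 CH.

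**Figure D4:**
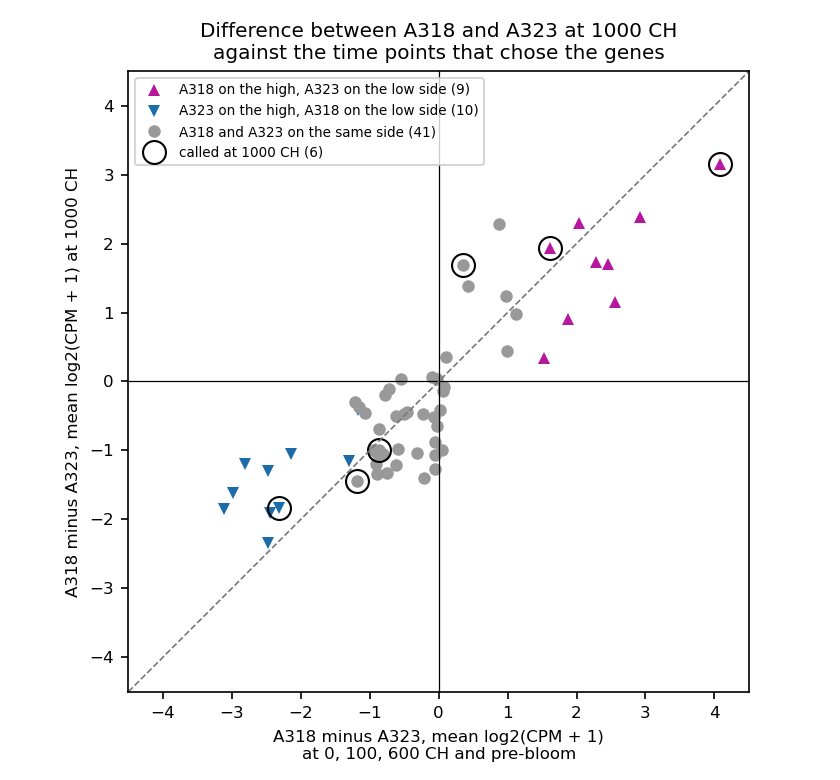
Difference between A318 and A323 in mean log2(CPM + 1) at 1000 CH (y axis) against that over the 4 time points that chose the genes (x axis, without the library labelled A323 0 CH replicate 4), 1 symbol per gene, with a ring around the 6 genes called at 1000 CH and a dashed line where both are equal. The 19 genes with A318 and A323 on different sides lie in the quadrants of equal sign.

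Across the 60 genes the difference at 1000 CH and that at the other time points had a Pearson r of 0.86, given as a description since the genes share the same libraries, and across 26298 Prupe genes r was 0.36. Since the 60 genes were chosen for a large range between cultivars, r cannot be compared between these sets. The median size of the difference at 1000 CH was 1.70 on the log2 scale for the 19 genes and 0.88 for the other 41, against 0.29 over all Prupe genes with a count. The 19 genes had differed by a median of 2.45 at the other time points. At 1000 CH, in libraries of 529219 to 8316974 counts, the genes low in A318 were at a median of 23.9% of the high cultivars' level. Those low in A323 were at 6.86% in its libraries of 1485248 to 6188643 counts. At the other time points these medians were 2.79 to 5.53% in A318. By library at 1000 CH, the deepest of A318 was at 11.4% and its others at 22.3 to 32.3%. The shallowest of A323 was at 4.90% and its others at 5.58 to 16.5%. The part of depth in these levels was not tested.

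In edgeR's quasi-likelihood test on these 8 libraries, 6 of the 60 genes were called (Benjamini-Hochberg adjusted p below 0.05 over all genes tested and a fold change over 2), 3 higher in A318 and 3 higher in A323. Of all 14088 genes tested, 2.48% were called: 2.2% higher in A318 and 0.277% higher in A323. The 39 genes higher in A323 became 16 without A318 replicate 3, 20 without A323 replicate 2, 22 without A318 replicate 1, 25 without A323 replicate 4, 62 without A323 replicate 3 and 144 without the filter on low counts. The other 20 of the 60 genes not among the 40 tested had too few counts at 1000 CH. Of the libraries at 1000 CH, 5 had totals under 2423035.25 counts, 3 of them of A318 and the others of A323. The alternative below without shallow libraries leaves out those of A318 only. Without the filter on low counts, 15 of the 60 genes were called, against 2.32% of 25877. Of the 19 genes with A318 and A323 on different sides, 8 were tested and 3 called, with 8 of the 8 in the direction of their side, and without the filter 9 of the 19 were called.

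Prupe.2G153400 gave the largest difference. Its level at 1000 CH was 28.3, 21.1, 31.8 and 34.5 CPM in A318 and 1.94, 4.98, 1.89 and 1.35 in A323. Every library of A318 was above every library of A323, and the log2 fold change was 3.54 (SE 0.39, edgeR adjusted p = 0.000224). It was called under each of 17 alternatives.

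Prupe.3G059800, the gene matching the PDR8 transporter, was at 7.56, 15.6, 13.2 and 16.1 CPM in A318 and 3.39, 3.17, 2.75 and 1.35 in A323. The groups did not overlap (log2 fold change 2.23, SE 0.45, edgeR adjusted p = 0.0103). Its call was lost in 3 of 17 alternatives: with glmTreat, which tests against a 2-fold change (adjusted p = 0.203), with all peach libraries in the fit (edgeR adjusted p = 0.0796) and without the 3 shallow libraries of A318 (edgeR adjusted p = 0.136). Prupe.5G044400, high in A209 and A323, was at 9.45, 4.69, 2.65 and 2.16 CPM in A318 and 15.2, 19.5, 29.7 and 10.1 in A323, without overlap. The log2 fold change was -2.42 (SE 0.53, edgeR adjusted p = 0.0165). The call was lost in 5 of 17 alternatives: without A318 replicate 3 (edgeR adjusted p = 0.0653), A318 replicate 4 (0.0521) or A323 replicate 3 (0.0914), with all peach libraries (0.0637) and with glmTreat (0.236).

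The other 3 called genes had A318 and A323 on the same side at the other time points. Prupe.5G107500 was at 24.6, 9.38, 41.7 and 37.5 CPM in A318 and 4.36, 12.2, 5.33 and 8.08 in A323, and the groups overlapped in 1 library (log2 fold change 2.03, SE 0.40, edgeR adjusted p = 0.00798). Of 17 alternatives, glmTreat alone lost the call (adjusted p = 0.248). Prupe.2G107700 was at 24.6, 19.5, 13.9 and 17.3 CPM in A318 and 34.1, 50.2, 63.2 and 67.3 in A323, without overlap (log2 fold change -1.53, SE 0.27, edgeR adjusted p = 0.0038). This call was lost with glmTreat (adjusted p = 0.636) and with all peach libraries in the fit, both with the library labelled A323 0 CH replicate 4 (edgeR adjusted p = 0.163) and without it (0.146). Prupe.3G012600 was at 51.02, 27.3, 39.1 and 51.9 CPM in A318 and 58.2, 94.6, 61.3 and 141 in A323, also without overlap (log2 fold change -1.01, SE 0.26, edgeR adjusted p = 0.046). Its call was kept in 7 of 17 alternatives. It was lost with glmTreat (adjusted p = 0.99999), with all peach libraries (edgeR adjusted p = 0.217, and 0.219 without the library labelled A323 0 CH replicate 4), without the 3 shallow libraries of A318 (0.243), and when any of 6 libraries was left out: A318 replicate 1 (edgeR adjusted p = 0.0617), 2 (0.116) or 3 (0.143), or A323 replicate 1 (0.0514), 2 (0.114) or 4 (0.161).

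In Prupe.4G163600 and Prupe.3G153800 the level of A318, their low side, differed between its shallow and its deep library. Prupe.4G163600 was at 3.78, 3.13, 4.64 and 0.12 CPM in A318 at 1000 CH and at 7.27, 8.60, 8.76 and 13.5 in A323. The 3 higher values of A318 came from its 3 libraries of 529219 to 1509999 counts and the lowest from the library of 8316974 counts. The groups did not overlap and the gene was not called (log2 fold change -2.09, SE 0.76, edgeR adjusted p = 0.204). Without those 3 libraries the log2 fold change was -6.29 (edgeR adjusted p = 0.0021), with 1 library of A318 assumed to vary as A323 does. Prupe.3G153800 was at 5.67, 7.03, 3.97 and 0.481 CPM in A318 and 10.02, 19.5, 18.9 and 14.1 in A323. Its log2 fold change was -2.21 (SE 0.65, edgeR adjusted p = 0.0883), and -5.27 (edgeR adjusted p = 0.000423) without the 3 libraries. It was also called without A318 replicate 2 (log2 fold change -3.04, edgeR adjusted p = 0.0298).

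At 1000 CH, too few genes near the members were called to tell their share apart from that of all genes tested. Of 112 direct neighbours, 41 were tested and 2 called (4.88% of those tested), and of 992 genes within 10 places, 437 were tested and 12 called (2.75%), against 2.48% of all genes tested. Without A318 replicate 4, 0 direct neighbours were called, without A318 replicate 2 or 3 or A323 replicate 2 or 4 there was 1, and without A318 replicate 3 there were 6 within 10 places. The count within 10 places was 4 with glmTreat, 19 with DESeq2 and 26 without the filter on low counts.

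Each apricot cultivar was a few trees sampled at successive stages, so that p-values below treat libraries of the same trees as independent. In apricot, the question was whether the same genes also differed between cultivars of a related species, with reads counted on the peach genome. Of the 60 genes, 28 were called between the 4 apricot cultivars (edgeR, F test over cultivars with stage as a covariate, adjusted p below 0.05 and a largest fold change over 2). Of the 60, 51 passed the filter on low counts, so that 54.9% of those tested were called, against 28.3% of 22472 genes tested. The median of the largest log2 fold change was 1.18 over those 51 and 0.61 over all genes tested. At the last chill hour sampling, libraries of A2137 and A1956 were labelled flower and those of A660 and A1267 bud. An additive stage term does not remove this difference. Cultivar and organ are therefore not fully separated, in the members or in all genes tested. With the libraries at 0 and 100 CH only, all of them buds, 30 of 47 members tested and 5316 of 20316 genes tested were called. In 30 genes each of the 60 apricot libraries had a count, 17 were over 1 CPM in all of them and 14 in none, among these Prupe.1G296700 and Prupe.2G063500. A single gene was among the 60 highest of the same score computed on apricot.

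That gene was Prupe.2G107700. It was at 28.5 to 284 CPM in the 14 libraries of A2137 (median 104) and 36.4 to 141 in those of A1267 (median 92.7), against 0 to 2.16 in A1956 (median 0.127) and 0 to 1.15 in A660 (median 0.263). No library of the high side overlapped the low side, and the edgeR adjusted p was 3.18e-31. The high side joined an early and a late blooming cultivar, and so did the low side, while in peach the gene divided high chill from low chill.

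In 3 of the 60 genes the apricot libraries of the high and the low side did not overlap, against 0.763% of Prupe genes. Prupe.6G155000 was at 0 to 0.0727 CPM in A1267 and 0.302 to 3.37 in the other 3 cultivars (edgeR adjusted p = 4.51e-26). Prupe.5G032000 was at 0.898 to 4.92 CPM in A2137 (median 3.17) and at no more than 0.588 in the others, where its median was 0 (edgeR adjusted p = 7.04e-24). It was also the gene that in peach was high in A209 alone.

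**Figure D5:**
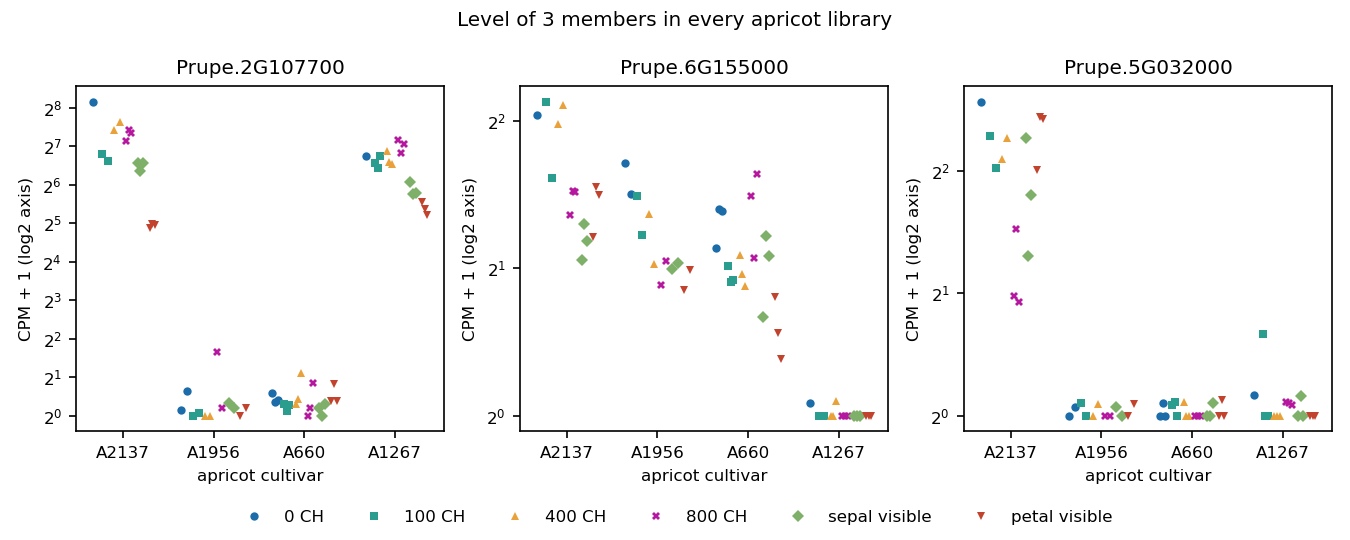
CPM + 1 on a log2 axis for Prupe.2G107700, Prupe.6G155000 and Prupe.5G032000 in each apricot library, by cultivar (x axis) and stage (colour and shape). Prupe.2G107700 sits at 28.5 to 284 CPM in A2137 and 36.4 to 141 in A1267, and at no more than 2.16 CPM in A1956 and A660.

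Scores were continuous across the edge of the group. Prupe.2G099700, Prupe.3G066800 and Prupe.3G153800 had the last scores inside (1.58, 1.57 and 1.57) and Prupe.2G064500, Prupe.3G121800 and Prupe.4G127200 the first outside (1.56, 1.53 and 1.52).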

How the data were processed

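The authors deposited raw counts per gene for each library, without normalization. They trimmed the reads, removed ribosomal RNA reads in peach, aligned both species to version 2.0 of the peach genome (the submitters' processing notes name STAR 2.5.3a and HTSeq), counted over gene models, and replaced the DAM region by 6 DAM genes of the v1.0 annotation. Reads were single-end in apricot and paired-end in peach. Strand setting and handling of multiply mapped reads are not given in the sources used here.

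The deposited counts were turned into CPM with pandas 2.3.3 and numpy 2.4.6. Tests used edgeR 4.0.16 (filterByExpr, TMM, glmQLFit, glmQLFTest) in R 4.3.3, with Benjamini-Hochberg adjustment over all genes tested. The SE was back-calculated from the quasi-likelihood F statistic and the fitted log2 fold change. At 1000 CH only the 8 libraries of A318 and A323 entered, in apricot all 60 with an additive stage term. DESeq2 1.42.0 was an alternative, as were glmTreat, other size factors, no filter, other sets of libraries and a replicate block. The fits were tested on simulated data. Figures were drawn with matplotlib 3.10.9.

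Groups and replicates came from the sample labels. The study's sample table differs from them by 1 library of A323 between 100 and 600 CH. The labels were followed, and the effect on the means of these time points was not tested. The smallest chi-square per gene between peach libraries of a group was 3.43 over 99 pairs, so no library was a copy of another of its group. Arabidopsis names came from the study's annotation. The members and lists were chosen with earlier results of these data known. By rule, the text names the 30 highest scores, annotated members, members called at 1000 CH (the 10 largest fold changes each way), members within 10 listed genes of another, and ranks 58 to 63. Other members are named as examples of their group and were chosen after their values were seen.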

Additional observations from a re-analysis of the deposited data

Results flagged for a closer look

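The level of the genes low in each cultivar was examined in 15 groups of 4 libraries, and 3 held a library far from the other 3. The 6 genes called at 1000 CH gave 12 further sets of 4 libraries, of which 0 did. Chance would give about 1 in 20 sets. In the library labelled A323 0 CH replicate 4, the genes low in A323 were at a median of 72.9% of the high cultivars' level. In A209 600 CH replicate 1 the corresponding median was 8.97%, and in A340 100 CH replicate 1 it was 4.99%. These medians were over the genes low in each cultivar, and the cause was not tested.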

How the results depend on the processing

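At 1000 CH the members called numbered 6, and 1 with glmTreat against a 2-fold change, 15 without the low-count filter and 10 with a replicate block. With each library left out they numbered 6 to 9. With all peach libraries in the fit they numbered 8, against 174 of 22574 genes tested. Without the library labelled A323 0 CH replicate 4 (chosen after seeing the data) that fit called 15, against 251 of 22523. Fits with all peach libraries take their spread also from libraries that chose the genes, so their counts of members are not independent of the score. Genes called numbered 349, and 49 with glmTreat, 600 without the filter, 174 with all peach libraries, and 234 to 488 with each library left out. Direct neighbours called numbered 2, and 0 with glmTreat, 0 with all peach libraries, 0 with all but the library labelled A323 0 CH replicate 4, 1 without the 3 shallow libraries of A318 (chosen after seeing the data), and 0 to 2 with each library left out. In no alternative did a called member turn its direction.

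The replicate numbers were not taken as pairs. The correlations of same-numbered libraries' deviations were 0.11, -0.15, -0.06 and 0.23, and 3 of 8 libraries were closest to their own number. With the block 434 genes were called at 1000 CH, and in apricot 28 members and 6267 genes, against 28 and 6368.

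Leaving out each apricot replicate gave 25 to 31 members and 4739 to 5612 genes, and the other apricot alternatives stayed within 1.5 times. Of the 60 members, 55 to 59 stayed among the 60 highest scores without each replicate number, 46 with a pseudocount of 0.1, 50 with 5, and 52 to 60 under the remaining alternatives. At a total of 494799 counts, levels below 6.06 CPM rest on fewer than 3 counts.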
